A study of Mus musculus with 6 samples.

Results

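Rnu11, Rnu12, Rn7sk, Rmrp, Rpph1 and Terc encode the U11 and U12 small nuclear RNAs, 7SK, the RNA of RNase MRP, the RNA of RNase P and telomerase RNA. These 6 genes were taken by symbol from 53379 listed genes. They correspond to 7 Ensembl identifiers, because the annotation holds 2 overlapping entries named Rmrp. Of the 6 genes, 4 reached a mean of at least 1 FPKM (fragments per kilobase of a gene, divided by the fragments of its library) and were tested. RNA of small extracellular vesicles (sEV, membrane-bound particles that cells release) from wild-type mouse embryonic cortical neurons had been sequenced. The control group had 3 libraries and its treatment is given as control. The OGD/R group also had 3 libraries, and the labels do not spell out that treatment; the title of the series speaks of hypoxic and normoxic neurons. The labels do not say whether replicates are separate cultures. The spread between libraries, on which every p-value rests, may therefore be technical.

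These RNAs are short, folded transcripts that work inside ribonucleoprotein particles. U11 and U12 form one particle of the minor spliceosome, which removes a rare class of introns: U11 pairs with the 5′ splice site and U12 with the branch site. 7SK holds the kinase P-TEFb, which releases paused RNA polymerase II, in an inactive complex with HEXIM, LARP7 and MEPCE. RNase MRP cleaves the precursor of ribosomal RNA, RNase P trims the 5′ end of transfer RNAs, and telomerase RNA carries the template for telomere repeats. Of these RNAs 7SK, RNase MRP RNA and RNase P RNA are made by RNA polymerase III, whereas U11, U12 and telomerase RNA are made by RNA polymerase II.

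The annotated transcripts of the detected members are shown first, because copies and overlaps of these sequences can bear on the counts. All are from GENCODE M21 on GRCm38, 5′ to 3′, in the DNA alphabet. In Rnu11 (chr4:132270080-132270213, minus strand, 134 nt) capitals mark AAGG at bases 4 to 7, complementary to the conserved CCTT of the minor-class 5′ splice site, and ATTTTT at bases 88 to 93, which has the letters of the site bound by the Sm protein ring.
Rnu11: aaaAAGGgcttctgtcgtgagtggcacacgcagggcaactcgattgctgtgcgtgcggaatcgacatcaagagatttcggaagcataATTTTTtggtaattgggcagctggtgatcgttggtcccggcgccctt
In Rnu12 (chr15:83149644-83149794, plus strand, 151 nt) capitals mark GTAAGGA at bases 18 to 24, which pairs with the minor-class branch site around its bulged adenosine, and ATTTTT at bases 75 to 80.
Rnu12: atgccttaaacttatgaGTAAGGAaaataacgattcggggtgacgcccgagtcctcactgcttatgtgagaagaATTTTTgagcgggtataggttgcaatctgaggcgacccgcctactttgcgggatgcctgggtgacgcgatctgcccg
In Rn7sk (gene at chr9:78175303-78175633, minus strand, 331 nt) the first 120 bases, chr9:78175514-78175633, are shown with capitals on GATC, the letters repeated in the first stem, where HEXIM binds.
Rn7sk: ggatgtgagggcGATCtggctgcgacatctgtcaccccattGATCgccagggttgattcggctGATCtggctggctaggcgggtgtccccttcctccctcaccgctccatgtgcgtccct
In Terc (gene at chr3:96414437-96414859, minus strand, 423 nt) the first 80 bases, chr3:96414780-96414859, are shown with capitals on CTAACCC at bases 29 to 35, letters of the template for the telomere repeat.
Terc: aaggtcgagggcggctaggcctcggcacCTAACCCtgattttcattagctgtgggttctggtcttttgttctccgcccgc

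Only the RNA strand was searched, and the marked letters do not overlap one another. Annotated transcripts within 20% of each member's length held AAGG in 42.5% and ATTTTT in 4.21% of 2828 for Rnu11, and GTAAGGA in 0.666% and ATTTTT in 3.62% of 2404 for Rnu12. GATC occurred in 66.5% of 10107 such transcripts for Rn7sk, where it was found 3 times, at bases 13 to 16, 42 to 45 and 64 to 67. CTAACCC occurred in 1.23% of 17907 for Terc. The predicted folding energy of the members varied, and no other transcripts were folded for comparison. RNAfold gave −33.8 kcal/mol per 100 nt for Rn7sk, −38.1 for Rnu11, −39.1 for Rnu12, −38.7 and −39.2 for the longer and shorter Rmrp entries, −47.0 for Rpph1 and −47.8 for Terc. GC content was lowest in Rnu12 (51.7%) and Rnu11 (52.2%) and highest in Rpph1 and Terc, both 67.1%.

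Fragments counted on genes were 1092724 to 1494499 per control library and 1320916 to 2141611 per OGD/R library. A family of 6 near-identical genes named for Gm23935 took 0.303 to 4.34% of them in control libraries and 49.6, 1.97 and 24.5% in OGD/R 1, 2 and 3. FPKM divides by the library total, so this family lowers all other values most in OGD/R 1 and OGD/R 3. The median log2 difference of all tested genes was −0.44, and −0.12 with totals that leave the family out. All 12 neuron markers were detected, with a median of 9.02 to 14.3 FPKM in control and 4.31 to 13.4 FPKM in OGD/R libraries. None of the 6 markers each of astrocytes, microglia, oligodendrocytes, erythroid cells, or endothelial, mural and fibroblast cells was at 0 in all libraries either. In control their medians were 7.78 to 8.90 FPKM for astrocytes, 6.18 to 9.29 for microglia and 4.72 to 7.44 for oligodendrocytes. Erythroid markers had 1.95 to 11.9 FPKM, and endothelial, mural and fibroblast markers 6.49 to 16.4 FPKM. The median of all tested genes was 5.65 to 7.40 FPKM in control and 2.81 to 7.35 FPKM in OGD/R libraries. Olfactory receptor genes, which neurons of the cortex hardly use, had medians of 2.14, 2.44 and 2.67 FPKM in control 1 to 3 and 0.781, 2.47 and 1.47 FPKM in OGD/R 1 to 3 over 1406 genes. Rnu11 and Rn7sk had higher mean levels than all of them, Rnu12 than 96.3% and Terc than 70.3%.

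U11 was the most abundant member and was high in 4 of the libraries. Rnu11 stood at 2254, 275 and 554 FPKM in control 1, 2 and 3, from 330, 52 and 111 reads. In OGD/R 1, 2 and 3 it stood at 1129, 2204 and 2158 FPKM, from 324, 427 and 382 reads. Control 1 held the highest value of all, so the groups overlapped: control 2 and control 3 were the lowest libraries, and the 3 OGD/R libraries lay between control 3 and control 1. Among the 44125 tested genes of a library, Rnu11 ranked 7th, 70th and 13th in control 1 to 3, and 9th, 6th and 9th in OGD/R 1 to 3. Its mean was the highest of 1383 annotated snRNA genes, whose median was 6.27 FPKM among the 984 that were above 0.

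The group means of Rnu11 were 1028 ± 1071 FPKM in control and 1830 ± 608 FPKM in OGD/R (SD, n = 3 each). On the log2(FPKM + 1) scale OGD/R was higher by 1.32 (SE 1.13), which did not pass limma's test (Benjamini-Hochberg adjusted p = 0.798). Of the 4 tested members limma called 0, also at an unadjusted p under 0.05, and over all genes it called 7, or 0.0159%. Fewer vesicles carrying an RNA and less of it per vesicle cannot be told apart in such libraries. The values also give whole reads, and limma-voom on these reads called Rnu11 higher in OGD/R by 1.86 on the log2 scale (SE 0.34, adjusted p = 0.00673). This fit also rescales the library totals, and limma on totals without the Gm23935 family gave 1.77 (adjusted p = 0.895). Rnu11 was the 1 member that limma-voom called. Over all genes this test called 44 of 42345, or 0.104%, and 20 as higher, or 0.0472%.

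That call was not made without control 2. There the limma-voom difference of Rnu11 was 1.24 (SE 0.44), and limma gave 0.65. In that limma-voom fit few genes had small p-values, with 132 of 41717 at an unadjusted p under 0.05. With all libraries 3004 of 42345 were, so the lost call does not single out Rnu11. Without any other single library limma-voom still called Rnu11, with differences of 1.67 to 2.59. The spread within the control group was large in reads as well. Per fragment counted, control 1 held 8.21 times as many Rnu11 reads as control 2 (exact 95% interval 6.11 to 11.2, covering counting error only). OGD/R 2 held 1.95 times as many as OGD/R 1 (1.69 to 2.26). Against totals without the Gm23935 family, the OGD/R libraries were closer together, at 2240, 2249 and 2857 FPKM, beside 2356, 276 and 556 FPKM in control. On that scale too control 1 lay within the OGD/R range.

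Genes that overlap or resemble Rnu11 were examined for their own values. Rnu11 lies wholly under exons of Gm28872, a long non-coding RNA on the opposite strand, whose values were 57.9, 58.2 and 33.9 FPKM in control and 41.4, 56.9 and 47.9 FPKM in OGD/R. Gm28872 was at its highest in control 2, where Rnu11 was lowest, and at its lowest in control 3, where Rnu11 was also low. These values come from 10, 13 and 8 reads in control 1 to 3 and 14, 13 and 10 reads in OGD/R 1 to 3. With so few reads the order of the libraries is uncertain. Its fitted log2 difference was −0.01 (SE 0.40; limma adjusted p = 0.998). Without knowledge of the kit's strand setting, reads of such a pair could be mixed. In these tables, 20.5% of genes up to 500 nt that lay at least 90% under an opposite-strand exon were at 0 in all libraries (71 of 347), as were 20.5% of those with no overlap (2571 of 12530). Of those at least 90% under a same-strand exon 96.4% were at 0 (650 of 674). The 4 annotated relatives of Rnu11 (Gm25785, Gm24890, Gm22472 and Gm25097; 93.5, 92.2, 92.0 and 89.2% identity) held 1 read in control 3 and 1 in OGD/R 3.

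U12, the partner of U11, was barely detected. Rnu12 stood at 30.3, 0 and 17.7 FPKM in control 1 to 3 and at 12.4, 0 and 15 FPKM in OGD/R 1 to 3, from 5, 0, 4, 4, 0 and 3 reads. Both groups held 1 library at 0 (control 2 and OGD/R 2), and their ranges overlapped. A count of 0 allows up to 3 reads, which is 0.000212% of the fragments in control 2 and 0.000208% in OGD/R 2. The means were 16 ± 15.2 FPKM in control and 9.14 ± 8.02 FPKM in OGD/R (SD, n = 3 each). The log2 difference of −0.48 (SE 1.46) did not pass limma's test (adjusted p = 0.939). It turned positive without control 1 (0.47), control 3 (0.10) or OGD/R 2 (0.81), and without control 2 it was −2.02.

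U11 and U12 enter the minor spliceosome in equal number, and their reads were far from equal here. Per length, U11 exceeded U12 by 61.7 times in the control libraries together (493 against 9 reads; exact 95% interval 32.3 to 136) and by 182 times in the OGD/R libraries together (1133 against 7 reads; 88.2 to 455). These intervals cover counting error only and leave out the spread between libraries, so they do not compare the groups. Of the 493 control reads of U11, 330 came from control 1. By mean level Rnu12 ranked 279th of the 1383 snRNA genes. Its 4 relatives (Gm24525, Gm23502, Gm25703 and Gm22214; 96.6, 96.5, 95.4 and 77.7% identity) together held 2 reads in each of control 3, OGD/R 1 and OGD/R 3. Counted with Rnu12 they would raise its reads from 9 to 11 in control and from 7 to 11 in OGD/R. Reads that the authors' counting may have dropped between such copies would appear in none of these entries. The level of U12 and its ratio to U11 are therefore uncertain.

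**Figure D1:**
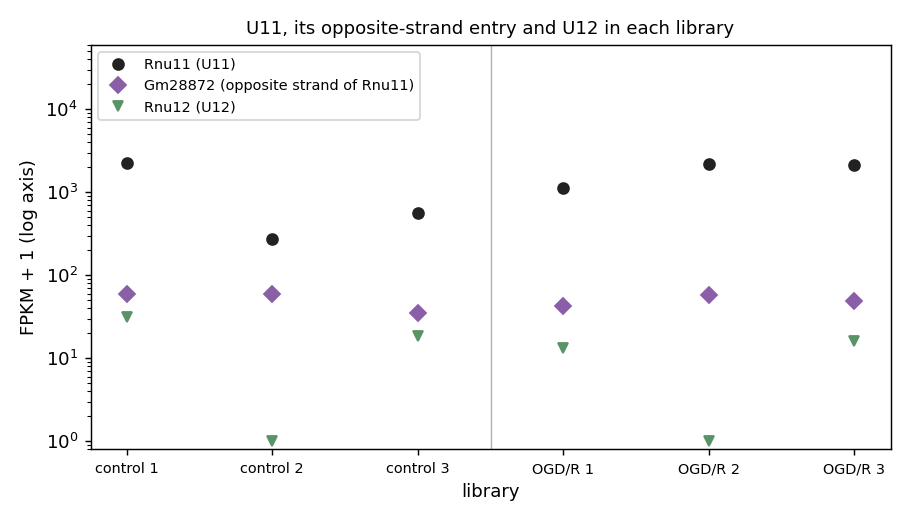
FPKM + 1 on a log axis for Rnu11, the opposite-strand gene Gm28872 and Rnu12 in each of the 6 libraries. Rnu11 varies between 275 and 2254 FPKM while Gm28872 stays between 33.9 and 58.2 FPKM, from 8 to 14 reads per library. Rnu12 is at 0 in control 2 and OGD/R 2.

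The protein genes of the minor spliceosome gave no call. Of 14 listed genes besides U11 and U12, 12 were found and tested, and Rnu4atac and Rnu6atac were not matched by symbol. The list had 3 differences above 0 and 9 below, with a median of −0.51 beside −0.44 for all tested genes. limma and limma-voom called 0 of them, and limma gave an unadjusted p under 0.05 for 1, beside 6.76% of all tested genes (2985 of 44125). That gene was Scnm1, a protein of the minor spliceosome, at 44.3, 61.1 and 50.8 FPKM in control and 9.30, 42.7 and 7.18 FPKM in OGD/R (log2 difference −1.77, SE 0.63, adjusted p = 0.712). Its groups did not overlap, which held for 11.9% of all tested genes, and its low values were in OGD/R 1 and OGD/R 3. The next smallest p-values were those of Zcrb1, a protein of the U11/U12 particle (−0.94), and Ccdc84 (−1.0).

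The small nuclear RNAs of the major spliceosome were lower than U11 in these tables. Of 10 listed genes 7 were found and 4 tested, with 2 differences above 0 and 2 below (median 0.28), and neither test called any, with 0 at an unadjusted p under 0.05 in limma. Rnu2-10, a U2 gene, averaged 54.7 ± 23.6 FPKM in control and 48.4 ± 33.7 FPKM in OGD/R (SD, n = 3 each; log2 difference −0.33). Rnu1a1, a U1 gene, averaged 6.10 ± 2.32 and 10.9 ± 6.72 FPKM (0.64), and Rnu1b1, another U1 gene, 8.82 ± 11.8 and 8.33 ± 5.47 FPKM (0.7). U1 and U2 have many near-identical gene copies, between which the authors' counting could split or drop reads, so these levels are uncertain.

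7SK varied more within each group than between them. Rn7sk stood at 13.8, 128 and 875 FPKM in control 1 to 3, from 5, 60 and 433 reads. In OGD/R 1 to 3 it stood at 868, 94.0 and 2.29 FPKM, from 615, 45 and 1 read. Each group thus held 1 high, 1 middle and 1 low library, and the ranges lay nearly on top of each other. Control 3 held 63.3 times as many Rn7sk reads per fragment as control 1 (exact 95% interval 26.9 to 196). OGD/R 1 held 379 times as many as OGD/R 3, which had 1 read, so its interval reaches from 67.8 to 15007.

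The highest and lowest Rn7sk libraries were not those of Rnu11. Control 1, with the highest Rnu11, had the lowest Rn7sk of the controls, and OGD/R 1, with the lowest Rnu11 of its group, had the highest Rn7sk. Among the tested genes Rn7sk ranked 9182nd, 258th and 8th in control 1 to 3, and 12th, 286th and 28531st in OGD/R 1 to 3. Its mean was the highest of 562 genes annotated as miscellaneous RNA. The group means were 339 ± 468 FPKM in control and 321 ± 475 FPKM in OGD/R (SD, n = 3 each). The log2 difference was −0.88 (SE 2.02; limma adjusted p = 0.919) and −0.56 in limma-voom (adjusted p = 0.935). Without control 3 it turned to 0.56 and without OGD/R 3 to 1.27 in limma.

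Sequences like 7SK are common elsewhere in the genome, and the annotation held 236 genes that aligned to Rn7sk, of which 135 covered at least 60% of its length and 11 of these were over 90% identical. The 11 closest copies together held 36, 51 and 75 reads in control 1 to 3 and 75, 57 and 7 reads in OGD/R 1 to 3. That is fewer than Rn7sk held in control 2, control 3 and OGD/R 1, and more than it held in the other libraries. All 135 genes together held 427, 890 and 763 reads in control 1 to 3 and 571, 651 and 403 reads in OGD/R 1 to 3. These totals take in less similar genes at their whole length, such as Alkbh6 (71.8% identity). Gm24447 is identical to Rn7sk over 241 of its 331 bases, and it stood at 5.42, 18.8 and 53.5 FPKM in control and 67.7, 79.8 and 2.24 FPKM in OGD/R. It was low where Rn7sk was lowest and high in control 3 and OGD/R 1, and unlike Rn7sk it was highest in OGD/R 2. Reads could be split between such copies, so the value of any 1 of them is uncertain.

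The partners of 7SK were tested as a list of 7 genes, of which 2 had differences above 0 and 5 below (median −0.65). limma and limma-voom called none, and limma gave an unadjusted p under 0.05 for 2, against that share of 6.76% over all genes. Larp7, the protein that stays bound to the 3′ end of 7SK, stood at 12.5, 8.34 and 10.4 FPKM in control and 1.10, 4.24 and 2.5 FPKM in OGD/R (log2 difference −1.74, SE 0.54, limma adjusted p = 0.639). Cdk9, the kinase of P-TEFb, stood at 10.8, 9.72 and 8.45 FPKM in control and 1.83, 4.66 and 3.82 FPKM in OGD/R (−1.32, SE 0.50, adjusted p = 0.720). For both genes every OGD/R library lay below every control library, as the 11.9% of genes above also separate, and the lowest value was in OGD/R 1. Ccnt2, a cyclin of P-TEFb, had a difference of −0.65 (adjusted p = 0.776). In limma-voom, where the median over all genes was −0.12, the differences were −1.59 for Larp7 (adjusted p = 0.645) and −1.10 for Cdk9 (adjusted p = 0.665).

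The RNAs of RNase MRP and RNase P were listed at 0 in all 6 libraries. Both genes share exon bases with other entries of the same strand. The longer Rmrp entry (chr4:43492783-43493063, minus strand, 281 nt, long non-coding RNA) and the shorter (chr4:43492788-43493058, 271 nt, ribozyme) share 271 bases, so the shorter has no base of its own and the longer has 5 at each end. In the first 30 bases of the longer entry, chr4:43493034-43493063, capitals mark the bases outside the shorter.
Rmrp 5′ end: AGGCAgctcgctctgaaggcctgtttccta
Rpph1 (chr14:50807449-50807767, minus strand, 319 nt, ribozyme) shares 233 bases, 73.0% of its length, with an exon of Ccnb1ip1 at chr14:50807500-50807732. It has 35 bases of its own before that exon and 51 after it, chr14:50807733-50807767 and chr14:50807449-50807499.
Rpph1 5′ end: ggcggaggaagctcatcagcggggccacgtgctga
Rpph1 3′ end: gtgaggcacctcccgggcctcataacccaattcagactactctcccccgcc

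Zeros were frequent among short genes placed like these. Of genes up to 500 nt with 60 to under 90% of their bases under a same-strand exon, 70 of 90 (77.8%) were at 0 in all libraries, against 9 of 104 (8.65%) with such an overlap on the opposite strand. Rpph1 is itself among those 90 genes. Whether the overlaps gave the zeros of Rmrp and Rpph1 was not tested. The value 0 is a listed value, and whether these RNAs were in the vesicles cannot be read from it. Ccnb1ip1, the protein gene that shares bases with Rpph1, stood at 17, 24.9 and 25.3 FPKM in control and 6.19, 23.8 and 14.0 FPKM in OGD/R. Which part of its reads came from the shared bases cannot be read from gene totals. Ccdc107, which covers 124 bases of Rmrp on the opposite strand, averaged 11 ± 4.69 FPKM in control and 13.3 ± 3.62 FPKM in OGD/R (SD, n = 3 each).

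**Figure D2:**
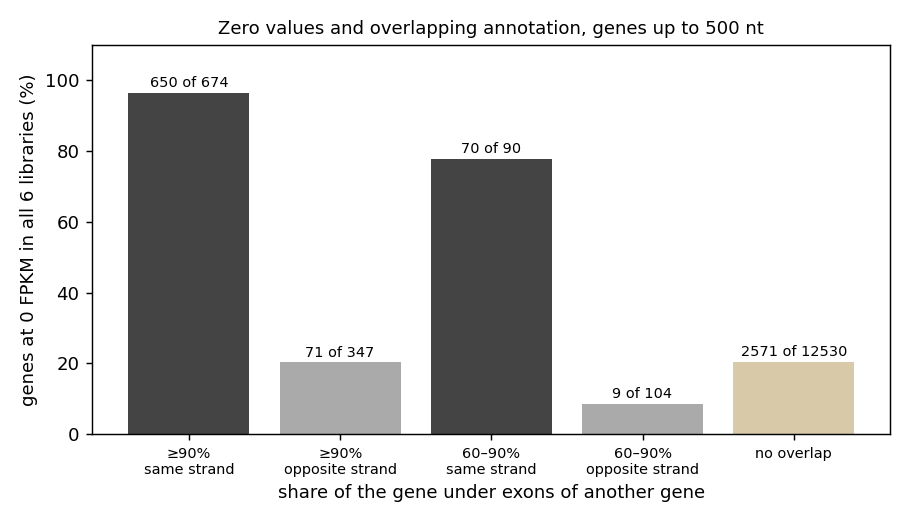
Percent of genes up to 500 nt that were at 0 FPKM in all 6 libraries, by the share of the gene under exons of another gene and the strand of that gene, with counts above the bars. Same-strand overlap goes with zeros in 96.4 and 77.8% of genes, and no overlap with 20.5%.

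Relatives of RNase P RNA that do not lie under Ccnb1ip1 were detected. Rprl3, which is 86.0% identical to Rpph1 over 257 bases, stood at 59.96, 4.88 and 18.5 FPKM in control and 51.5, 64.4 and 141 FPKM in OGD/R. Its groups overlapped through control 1, and like Rnu11 it was lowest in control 2. The log2 difference was 2.04 (SE 0.81; limma adjusted p = 0.720), and 2.51 in limma-voom (adjusted p = 0.313). Rprl2, 85.6% identical, stood at 9.47, 14.6 and 16.2 FPKM in control and 4.83, 28.6 and 26.1 FPKM in OGD/R, and both entries named Rprl1, which overlap one another, were at 0. No other annotated gene aligned to Rmrp.

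The 12 protein genes of RNase P and RNase MRP had 4 differences above 0 and 8 below (median −0.29), and neither test called any. In limma 1 of the 12, Rpp30, a subunit of both enzymes, had an unadjusted p under 0.05, as 6.76% of all tested genes had. It stood at 12.7, 14.7 and 10.4 FPKM in control and 1.62, 5.39 and 2.62 FPKM in OGD/R (log2 difference −1.78, SE 0.52, limma adjusted p = 0.614). Every OGD/R library lay below every control library, and groups did not overlap in 11.9% of all tested genes. Rpp25l and Rpp40, other subunits, had differences of −1.06 and −0.57. Rpp30 was not among the genes with whole reads in all libraries and has no limma-voom value.

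Telomerase RNA was at the limit of detection. Terc stood at 4.33, 0 and 3.16 FPKM in control and 0, 0 and 14.3 FPKM in OGD/R, from 2, 0, 2, 0, 0 and 8 reads. OGD/R 3 alone held 8 of the reads, and control 2, OGD/R 1 and OGD/R 2 held none. The means were 2.5 ± 2.24 FPKM in control and 4.77 ± 8.27 FPKM in OGD/R (SD, n = 3 each), and the log2 difference was −0.18 (SE 1.21; limma adjusted p = 0.976). The mean in FPKM was higher in OGD/R while the mean on the log scale was lower, and the difference turned to 0.06 in limma-voom, 0.27 with median centring and 0.34 with quantile normalization. Terc ranked 262nd of 562 miscellaneous RNA genes. Of 2 entries named 1600017P15Rik that are 81.1% identical to Terc, 1 was at 0 and the other at 6.17, 4.77 and 1.5 FPKM in control and 2.10, 1.55 and 6.80 FPKM in OGD/R.

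Of the 9 genes of the telomerase particle, 1 had a difference above 0 and 8 below (median −0.46). Neither limma nor limma-voom called any, and none had an unadjusted p under 0.05 in limma. Tert, the catalytic protein, averaged 8.87 ± 2.30 FPKM in control and 6.79 ± 6.95 FPKM in OGD/R (SD, n = 3 each; log2 difference −0.69). Parn, an exonuclease that trims the 3′ end of telomerase RNA, had −0.74, and Gar1, an H/ACA protein bound to it, 0.42.

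The polymerase that makes 7SK, RNase MRP RNA and RNase P RNA was covered by 26 genes for RNA polymerase III and its factors. Of these 3 had differences above 0 and 23 below, and the median was −0.44, beside −0.44 for all tested genes. limma and limma-voom called 0, and limma gave 0 at an unadjusted p under 0.05. The smallest p-values were those of Polr1d, a subunit shared with RNA polymerase I (−1.33, adjusted p = 0.720), Bdp1, a part of TFIIIB (−0.82), and Polr3c (−0.72).

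Other structured RNAs of RNA polymerase III gave 7 tested genes of 9 listed, with 4 differences above 0 and 3 below (median 0.22). Neither test called any, and 0 had an unadjusted p under 0.05 in limma. Rn7s2, a gene of the signal recognition particle RNA 7SL, stood at 51.9, 2.36 and 2.23 FPKM in control and 23.3, 23.1 and 32.8 FPKM in OGD/R. These values come from 17, 1 and 1 reads and from 15, 10 and 13 reads. Its control 1 was high and its other controls low, as for Rnu11, but those low values are under the floor. The log2 difference was 1.70 (SE 1.0, limma adjusted p = 0.750). Rn7s1, another 7SL gene, had a difference of −0.09. Reads could be split or dropped between such copies. Rny3, a Y RNA, stood at 44.9, 62.4 and 72.2 FPKM in control and 4.58, 61.0 and 44.5 FPKM in OGD/R (−1.25, limma adjusted p = 0.770). It was lowest in OGD/R 1 and highest in control 3, and Rn7sk was high in both of these libraries. Bc1, an RNA of neuronal dendrites, had 0 reads in control and 1, 0 and 1 in OGD/R, at or under the floor in both groups.

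**Figure D3:**
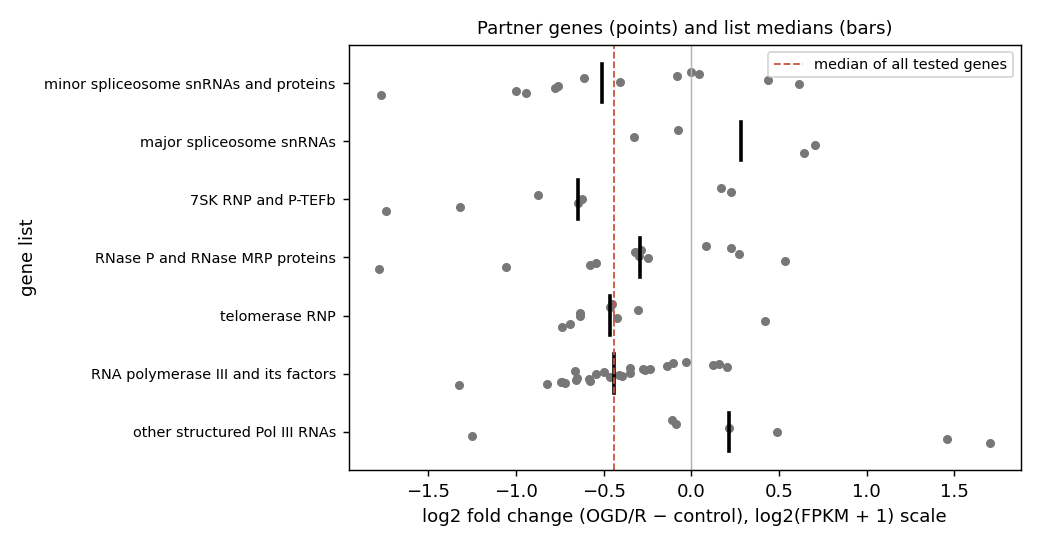
log2 difference (OGD/R minus control, log2(FPKM + 1) scale) of each tested gene as a point, by gene list, with the list's median as a bar. The dashed line is the median of all tested genes, −0.44, near which the medians of RNA polymerase III (−0.44) and telomerase (−0.46) genes lie, and none of the genes shown was called by either test.

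The genes whose levels were most like those of Rnu11 and Rn7sk were sought among 16995 tested genes with a mean of at least 10 reads, by Pearson correlation of log2(FPKM + 1) over the 6 libraries. All genes of a library share its total and depth, and with 6 points high values are common: 78 genes had r over 0.9 with Rnu11 and 41 with Rn7sk. Highest for Rnu11 were the olfactory receptor gene Olfr1116 (r = 0.986), at 4.45, 1.91 and 2.29 FPKM in control and 3.48, 4.51 and 4.0 FPKM in OGD/R, and the kinase gene Irak2 (r = 0.985), at 19.5, 6.86 and 11.7 FPKM and 15.8, 21.6 and 22.7 FPKM. These move over a much narrower range than Rnu11, and both were lowest in control 2. Highest for Rn7sk were the antisense transcript AI646519 (r = 0.976), at 5.21, 16.1 and 26.7 FPKM and 25.3, 9.85 and 4.31 FPKM, and Mrpl32, a mitochondrial ribosomal protein gene (r = 0.968), at 2.13, 3.99 and 6.44 FPKM and 5.89, 5.05 and 1.51 FPKM. The values are descriptions with no test.

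In order of mean level over all libraries the members were Rnu11 (1429 FPKM), Rn7sk (330.2 FPKM), Rnu12 (12.6 FPKM) and Terc (3.64 FPKM), with Rmrp and Rpph1 at 0. Neighbours in that order overlapped in at least 1 group. Rn7sk exceeded Rnu11 in control 3 (875 against 554 FPKM) and fell below Rnu12 in control 1 and OGD/R 3, and Terc was below Rnu12 in 4 libraries and equal to it, at 0, in control 2 and OGD/R 2. Between conditions, limma called none of the 4 tested members, and the plot of fitted changes by setting shows how far each depended on a single library.

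**Figure D4:**
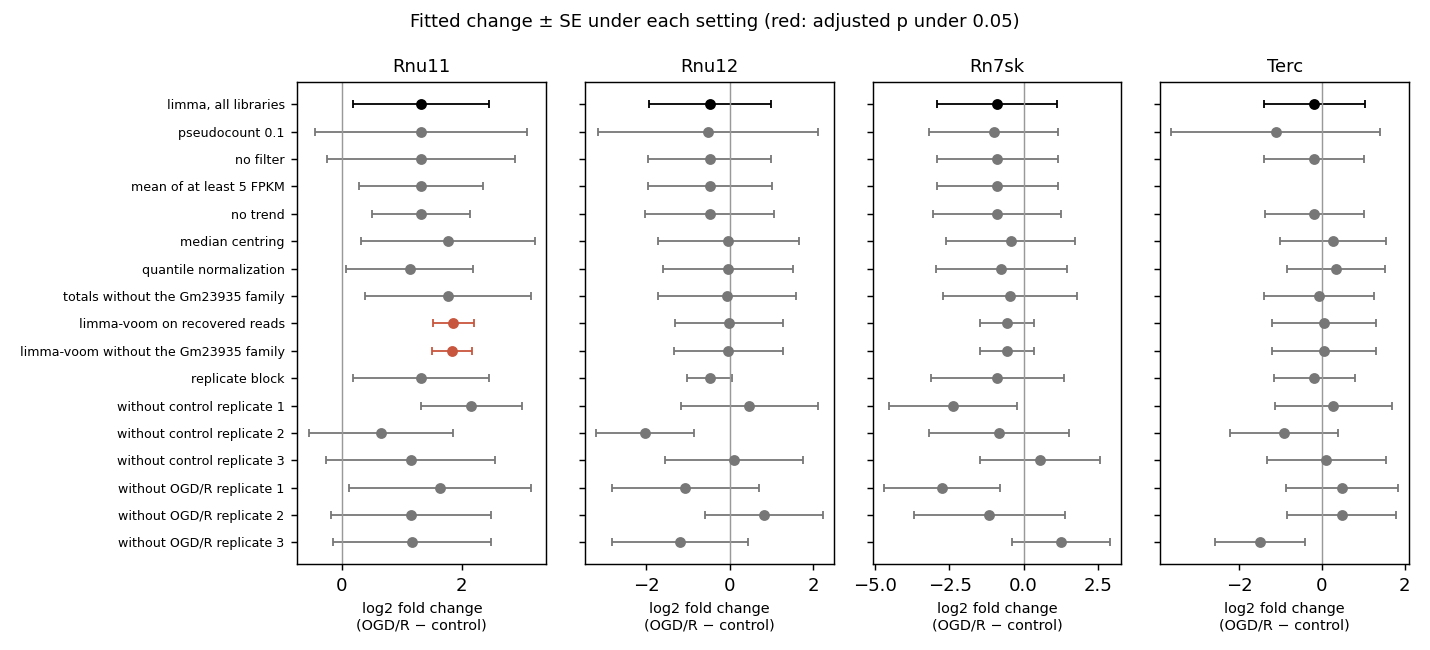
Fitted log2 difference (OGD/R minus control) ± SE on the horizontal axis for the 4 tested genes under each setting, black for limma on all libraries, red where the adjusted p was under 0.05. Rnu11 lies above 0 throughout and is red in limma-voom only (1.86 and 1.84), whereas Rnu12, Rn7sk and Terc cross 0 when 1 library is left out.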

How the data were processed

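RNA of sEV was sequenced in 6 libraries. A long-RNA kit (Epibiotek) was used on Trizol-extracted RNA, per the labels' protocols. The authors deposited 1 table of FPKM per library, and the table names mention HTSeq. Aligner, build and annotation are not given in the sources used here. With longest transcript lengths of GENCODE M21 (GRCm38; 53274 of 53379 identifiers matched), 95.96% of values above 0 were whole reads within 0.01 reads, and 51485 genes were whole in all libraries. These gave the library totals, and 3 reads correspond to 0.000140 to 0.000275% of a total.

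Groups came from the labels. OGD/R was compared with control by limma 3.58.1 (R 4.3.3) on log2(FPKM + 1), two-sided, with eBayes and a trend, for the 44125 genes whose mean reached 1 FPKM. The threshold was a Benjamini-Hochberg adjusted p under 0.05 over all tested genes, and all adjusted p-values in the text are of this kind. limma-voom on the recovered reads was the alternative for counts, also adjusted over its genes. Its library totals were rescaled by a trimmed mean of log ratios between libraries (TMM), so it differs from limma in normalization too. Both tests were also run on simulated libraries in which all genes shared the same relative spread beyond counting error. That setting does not match the spread of Rnu11 within the control group, and no result here rests on it. Ratios of reads have exact intervals with a confidence level of 95%, which cover counting error only. Copies were found with blastn 2.17.0 and folding with RNAfold 2.7.2; the remainder was done with matplotlib 3.10.9, scipy 1.17.1, numpy 2.4.6 and pandas 2.3.3 in Python 3.11.15.

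All 6 members were described. Of each list of partner genes, the 3 with the smallest p and any that passed were named. For members with a mean of at least 10 reads the 2 genes of highest correlation were named, leaving out most predicted or clone names. The names left out were Gm with digits, names ending in Rik, and clone names such as AC, AL or BC. Names in AI, such as AI646519, were kept. Copies and overlapping genes were named where they bear on a value. Members, lists and tests were chosen with earlier results of these data known.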

Additional observations from a re-analysis of the deposited data

How the results depend on the processing

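The count of genes past the threshold was 7 with limma. It was 0 with a pseudocount of 0.1, without the filter, without the trend, with median centring and with a replicate block, 5 with quantile normalization, and 7 with a mean of at least 5 FPKM or with totals without the Gm23935 family. It was 44 with limma-voom and 42 with limma-voom without that family, and 0 to 71 when 1 library was left out (71 without OGD/R 2). In limma-voom, leaving out 1 library gave 8 to 203 genes, and a replicate block 225. Rnu11 kept its direction in all 16 limma and limma-voom alternatives planned (0.65 to 2.16) and in all 7 added ones (1.24 to 2.59). It passed in limma-voom with 1.86, and 1.84 without the family, and there not without control 2 (1.24). Median centring and totals without the family gave 1.77. With 1 library left out Rnu12 ranged from −2.02 to 0.81 (limma-voom −1.06 to 1.14) and Rn7sk from −2.75 to 1.27 (limma-voom −2.31 to 1.25). Terc ranged from −1.49 to 0.48 (limma-voom −1.54 to 0.87). It was 0.27 with median centring, 0.34 with quantile normalization and 0.06 in limma-voom with and without the family, and was not tested at a mean of at least 5 FPKM. The cause of these shifts was not tested. Deviations of same-numbered libraries from their group means had correlations of 0.045, 0.102 and −0.058. With 3 libraries per group these cannot tell whether the numbers pair the libraries. Control 1 correlated best with OGD/R 3 (0.106), and control 2 with OGD/R 2 (0.102). With the replicate block limma gave 1.32 for Rnu11, −0.48 for Rnu12, −0.88 for Rn7sk and −0.18 for Terc, and limma-voom gave 1.52 for Rnu11, −0.06 for Rnu12, 1.08 for Rn7sk and 0.00 for Terc. The limma-voom alternatives with a library left out or a block were chosen after seeing the data. Depth limits Rnu12 and Terc, with at most 8 reads per library.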
